A study of Mus musculus with 6 samples.

Results

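Spink5, the intracellular clade B serpins and the membrane Kunitz inhibitors Spint1 and Spint2 belong to families of serine protease inhibitors. They were described as 9 genes (Spink5, Serpinb5, Serpinb6a, Serpinb6b, Serpinb1a, Serpinb8, Serpinb9, Spint1 and Spint2) out of 39179 genes in the count data. The 9 symbols were matched to Ensembl gene identifiers, and all 9 were among the 14723 genes that passed the filter on low counts, at least 1 CPM (1 CPM is 1 of every 1000000 counts on genes) in a minimum of 3 libraries. Spink5 was chosen by its counts in these same 6 libraries, high in the cochlea and near 0 in the vestibule, so its values are given as a description with no test. The other 8 genes belong to the families named above, and they too were listed with earlier results of these data known.

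The tissues were the sensory epithelium of the cochlea, the hearing organ, and of the vestibule, the balance organ, from wild-type C57Bl/6J mice at postnatal day 0, with males and females pooled. The data are 6 RNA-seq libraries, 3 per tissue, prepared by a strand-keeping kit from 450 ng of RNA of at least 20 pooled ears. No allele, transgene or treatment was involved, and the dissected epithelium is a mixture of cell types. The study's methods describe a single set of mice with a single RNA yield per tissue, and no label says that the 3 libraries of a tissue came from separate pools of animals. They may share a pool, so p-values measure only the spread between these libraries, which may be technical.

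Serpins and the Kazal and Kunitz inhibitors block serine proteases in different ways. A serpin offers a reactive loop as bait, is cut and traps the protease in a covalent complex, whereas Kazal and Kunitz domains fit into the active site and hold it tightly without being consumed. Clade B serpins mostly lack a signal peptide and act inside the cell, where they guard it against its own or incoming proteases, while Spink5 is secreted and Spint1 and Spint2 sit in the cell membrane. Protease balance matters in the inner ear, since loss of Serpinb6a in mice and of the protease TMPRSS3 in humans causes deafness.

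Counts on genes were 24464483 to 29225105 in the cochlear and 25476572 to 33664793 in the vestibular libraries, so that 1 CPM stood for 24.5 to 33.7 counts. Every pair of libraries of a tissue differed by more than sampling noise (chi-square per degree of freedom 26.6 to 92.7 over 6 pairs, against about 1 from sampling alone). Of 8 hair cell markers 4 were higher in the vestibule, and the others were not called and went both ways. Their log2 fold changes (vestibule minus cochlea) were 0.57 for Myo7a, -0.07 for Atoh1, -0.35 for Myo6 and -0.51 for Lhfpl5. Myo6 was lower in every vestibular library than in every cochlear one. Of 7 supporting cell markers 5 were higher in the cochlea and 1 in the vestibule. All of the hair cell and supporting cell markers passed the filter in this tissue. Markers of macrophages (8 of 8), dark cells and stria (5 of 6) and endothelium (4 of 5) were higher in the vestibule, and of 5 mesenchyme markers 3 were higher in the vestibule and 1 in the cochlea. Over all genes tested, 15.8% were called higher in the vestibule and 11.6% higher in the cochlea.

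Of the 8 genes tested, Serpinb5 was higher in the cochlea and Serpinb8 and Serpinb9 were higher in the vestibule, while Serpinb6a, Serpinb6b, Serpinb1a, Spint1 and Spint2 did not pass the test. The quasi-likelihood test of edgeR was used, with p-values adjusted by Benjamini-Hochberg over all genes tested and a threshold of 0.05 on this false discovery rate (FDR). Across all genes tested, 27.4% were called, 15.8% higher in the vestibule and 11.6% higher in the cochlea, and 3 of 8 was read against that share, which with so few genes is not a result about the group. Scaling by library size alone called 2754 genes higher in the vestibule and 1251 higher in the cochlea, against 2325 and 1711 with TMM, so the split by direction depends on the scaling. Without vestibule replicate 2 the calls over all genes fell from 4036 to 2267, and the 3 inhibitors were still called. Without any 1 cochlear library only Serpinb8 and Serpinb9 were called, because Serpinb5 then failed the filter, and with the tested genes held fixed all 3 were called. The median log2 fold change (vestibule minus cochlea) of the 8 genes was 0.19, and that of all genes tested was 0.0048. The libraries of the tissues did not overlap in CPM for 4 genes higher in the vestibule and 1 higher in the cochlea, where 27.5% and 14.3% of all genes tested did the same (41.8% in either direction). Serpinb5 and Spink5 reached 1 CPM in the cochlear libraries only, and Serpinb6b in the vestibular libraries only, so that their passing of the filter depended on the tissue in which they are high.

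**Figure D1:**
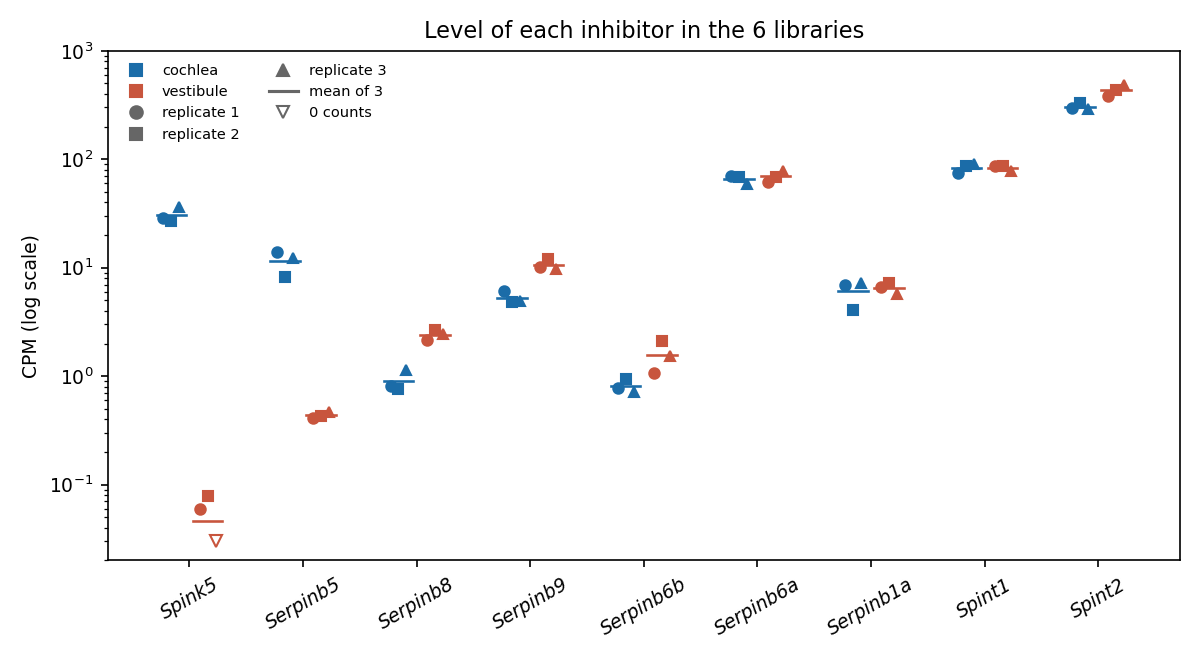
CPM of the 9 inhibitors in each library on a log axis, with cochlea in blue, vestibule in red, symbols for replicates and a line for the mean of 3 libraries. Spink5 and Serpinb5 lie far apart between the tissues, Serpinb8, Serpinb9, Serpinb6b and Spint2 lie higher in all vestibular libraries, and the open triangle marks the library with 0 counts of Spink5.

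**Figure D2:**
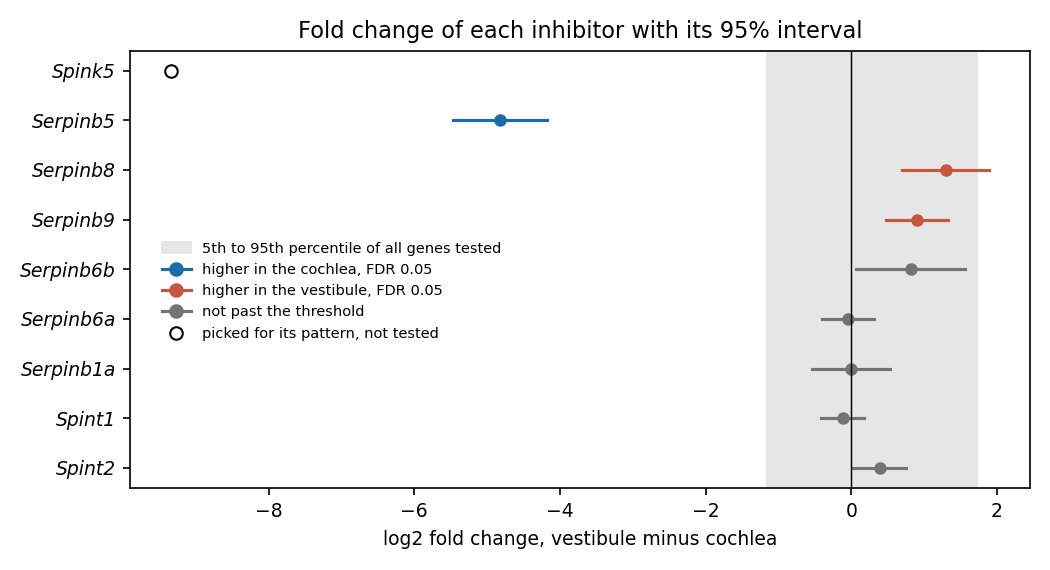
Log2 fold change (vestibule minus cochlea) of each inhibitor as a point, with the 95% interval of the edgeR fit as a line and the 5th to 95th percentile of all genes tested, -1.16 to 1.73, as a grey band. Serpinb5 lies at -4.82 outside the band. The intervals of Serpinb8, Serpinb9, Serpinb6b and Spint2 lie above 0, but Serpinb6b and Spint2 did not pass the adjusted threshold. Spink5 is an open point with no interval because it was not tested.

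Spink5 (ENSMUSG00000055561, chr18:43963235-44022501 on the plus strand of GRCm38) encodes a secreted inhibitor with many Kazal-type domains, known from the epidermis, where it restrains the kallikreins Klk5, Klk7 and Klk14. Its counts were 709, 778 and 1054 in the cochlear libraries and 2, 2 and 0 in the vestibular libraries. In CPM these were 29.0, 27.0 and 36.1 against 0.059, 0.078 and 0. All cochlear libraries were thus far above all vestibular ones, and each vestibular count lay under 3 counts, the limit that a count of 0 allows, which was 0.118 CPM in vestibule replicate 3. Pooled over libraries, 2541 counts in the cochlea and 4 in the vestibule gave a ratio of 653, with a 95% exact interval from 255 to 2399 that covers counting error only. The fitted log2 fold change was -9.34, and no other gene tested had a lower one. These values chose the gene and support nothing further. In bulk tissue, fewer cells that express a gene and less RNA per cell cannot be told apart, here and for every gene below.

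The known targets of Spink5 in skin were close to absent in both tissues. Klk5 had 0 counts in every library, Klk7 had 0 to 4 counts, and Klk14 had 0 to 2 counts. Not all kallikreins were absent. Klk8 had 211, 363 and 244 counts in the cochlear and 388, 319 and 315 in the vestibular libraries. Its log2 fold change (vestibule minus cochlea) was 0.17, and it did not pass the test. Markers of stratified epithelium summed to 14.3 to 19.3 CPM in the cochlear libraries and 14.4 to 19.7 CPM in the vestibular libraries. Of 9 such markers 5 were tested, and 1 of them, the basal keratin Krt5, was higher in the vestibule, with 4, 3 and 1 counts in the cochlea against 79, 57 and 54. Krt5 reached 1 CPM in the vestibular libraries only. Over all genes tested 15.8% were called in this direction, so 1 of 5 is not a result about the list. The part of keratinocytes in the level of Spink5 was not tested.

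The 5 genes whose log2 CPM was most like that of Spink5 across the 6 libraries were Bcl2, Tex21, Rspo2, Gng8 and Spire2, with Pearson's r of 0.9991, 0.9985, 0.9985, 0.9984 and 0.9981. These r are a description, since the 6 points are mainly 2 tissues and 63 of 14543 genes compared had an r over 0.99. Bcl2, an inhibitor of apoptosis, had a mean cochlear level of 168 ± 12.4 CPM and a vestibular one of 54.7 ± 9.74 CPM (SD, n = 3). Rspo2, a secreted enhancer of Wnt signalling, had 89.7 ± 10.7 CPM against 14.1 ± 3.42 CPM. Tex21 had 68, 64 and 63 counts against 1, 1 and 0. Gng8, a G protein gamma subunit, had 8.58 ± 0.357 CPM against 1.12 ± 0.392, and Spire2, an actin nucleator, had 60.5 ± 6.12 CPM against 15.7 ± 2.66. All 5 were lower in every vestibular library than in every cochlear one, which follows from choosing them by likeness to Spink5. Of all genes tested, 14.3% were lower in this way. The sizes of the 5 differences vary widely. Serpinb5 had an r of 0.978 with Spink5, and 611 of the 14543 genes had an r over 0.95.

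Serpinb5 (ENSMUSG00000067006, chr1:106861173-106883348, plus strand) encodes maspin, a clade B serpin of epithelial cells that does not inhibit proteases in the usual way. Its counts were 344, 236 and 362 in the cochlear libraries and 14, 11 and 12 in the vestibular libraries. The CPM values were 14.1, 8.19 and 12.4 against 0.416, 0.428 and 0.471. The lowest cochlear library was far above the highest vestibular one, and the 3 vestibular libraries lay close together. The log2 fold change was -4.82 ± 0.28 (SE), with a 95% interval from -5.47 to -4.17, a 28.3-fold higher level in the cochlea (edgeR, adjusted p = 9.2e-06). Of all genes tested, 22 including Serpinb5 had a log2 fold change this low or lower. Unlike Spink5, Serpinb5 was still counted in every vestibular library at more than 3 counts.

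Serpinb8 (ENSMUSG00000026315, chr1:107590006-107610484, plus strand) encodes a clade B serpin that inhibits furin. Its counts were 20, 22 and 33 in the cochlear libraries and 72, 69 and 62 in the vestibular libraries. These counts equal 0.818, 0.764 and 1.13 CPM against 2.14, 2.69 and 2.43 CPM, so that the tissues did not overlap at a low level. Serpinb8 had a log2 fold change of 1.30 ± 0.26 (SE), with a 95% interval from 0.70 to 1.89 and an edgeR adjusted p of 0.0061. Serpinb8 and Serpinb5 therefore went in opposite directions from the ends of the same gene cluster.

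The RefSeq sequences (GRCm38.p6) before the start sites of these genes are shown because Serpinb5 and Serpinb8 share a chromosome cluster but not a direction, and Serpinb9 was the other gene called. Each line gives the 250 bases before the start, 5′ to 3′ on the strand of the gene. Capitals mark a match to the AP-1 motif TGANTCA in Serpinb5 and Serpinb8, and to the interferon regulatory factor (IRF) motif GAAANNGAA, on the other strand, in Serpinb9.
Serpinb5, chr1:106860925-106861174, plus strand: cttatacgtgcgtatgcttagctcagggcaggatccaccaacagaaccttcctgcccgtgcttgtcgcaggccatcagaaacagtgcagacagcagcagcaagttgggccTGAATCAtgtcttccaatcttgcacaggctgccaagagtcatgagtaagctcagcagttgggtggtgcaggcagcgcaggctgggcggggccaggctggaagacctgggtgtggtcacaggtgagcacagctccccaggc
Serpinb8, chr1:107589756-107590005, plus strand: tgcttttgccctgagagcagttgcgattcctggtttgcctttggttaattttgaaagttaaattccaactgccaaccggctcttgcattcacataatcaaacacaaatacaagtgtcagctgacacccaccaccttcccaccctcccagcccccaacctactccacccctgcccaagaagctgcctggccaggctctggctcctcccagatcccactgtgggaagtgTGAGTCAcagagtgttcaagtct
Serpinb9, chr13:33004291-33004540, plus strand: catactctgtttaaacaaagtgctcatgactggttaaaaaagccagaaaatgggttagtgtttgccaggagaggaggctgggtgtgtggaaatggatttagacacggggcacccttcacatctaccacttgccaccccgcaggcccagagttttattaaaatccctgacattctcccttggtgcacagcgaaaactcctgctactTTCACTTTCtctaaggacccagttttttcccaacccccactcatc

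In these windows the AP-1 match was TGAATCA at -140 to -134 from the start in Serpinb5 and TGAGTCA at -23 to -17 in Serpinb8, so that genes of opposite direction both held one. The IRF match in Serpinb9 was TTCACTTTC at -45 to -37. Matches on both strands were counted in 32851 promoters of the same length, and 6.75% held the AP-1 motif and 7.13% the IRF motif. An IRF match (TTCGATTTC at -83 to -75) was also found before the first of 2 start sites of Serpinb6a, which did not pass the test. Windows of Spint1 and Spint2 were rich in G and C, at 72.8% and 69.6%, where the median of all promoters was 52.4%. The RefSeq start of Serpinb9 lies inside its GENCODE gene model, Serpinb1a had no entry in the table, and a match is a description of letters and not of a bound site.

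Serpinb9 (ENSMUSG00000045827, chr13:33003250-33017957, plus strand) encodes the inhibitor of granzyme B that protects immune and other cells from this protease. Its counts were 149, 139 and 143 in the cochlear libraries and 345, 312 and 247 in the vestibular libraries. In CPM these were 6.09, 4.83 and 4.89 against 10.2, 12.1 and 9.70, and every vestibular library lay above every cochlear one. Serpinb9 had a log2 fold change of 0.90 ± 0.19 (SE), with a 95% interval from 0.48 to 1.33 and an edgeR adjusted p of 0.0070. Granzyme B (Gzmb) had 1 count in 1 vestibular library and 0 in the other 5 libraries, and Gzma had 0 to 3 counts.

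Macrophage markers were higher in the vestibule, as Serpinb9 and Serpinb8 were. All 8 were higher in the vestibule, with log2 fold changes from 1.24 (Cx3cr1) to 1.91 (Ptprc), and their summed level was 77.0 to 95.4 CPM in the cochlear and 288 to 304 CPM in the vestibular libraries. Markers of neutrophils and mast cells summed to 43.0 to 47.7 CPM against 76.5 to 82.4 CPM. Of 5 tested, 2 were higher in the vestibule, where 15.8% of all genes tested were called in this direction. These 2 were the mast cell proteases Cpa3 (3.76 on the log2 scale) and Mcpt4 (4.25), of which Mcpt4 reached 1 CPM in the vestibular libraries only. Kit, a receptor of mast cells and other cells in the same list, had a log2 fold change of -0.35 and an edgeR adjusted p of 0.0680, with every vestibular library below every cochlear one, so the list did not move in 1 direction. None of 6 lymphocyte markers passed the filter, and their sum was 0.695 to 0.924 CPM in the cochlear and 1.77 to 2.22 CPM in the vestibular libraries. Nkg7 and Prf1, which mark cytotoxic lymphocytes, were at 0 in all libraries. This direction was not particular to immune markers. Of 5 endothelium markers 4 were higher in the vestibule (median log2 fold change 1.38), and of 6 dark cell and stria markers 5 were (median 1.44). The part of immune or other cells in the higher Serpinb9 and Serpinb8 was not tested.

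Serpinb6a (ENSMUSG00000060147, chr13:33917918-34002794, minus strand) encodes an intracellular inhibitor of cathepsin G and related proteases, found in hair cells. Its counts were 1707, 1996 and 1713 in the cochlear libraries and 2098, 1755 and 1971 in the vestibular libraries. In CPM these were 69.8, 69.3 and 58.6 against 62.3, 68.3 and 77.4, and the tissues overlapped. For Serpinb6a the log2 fold change was -0.042 ± 0.16 (SE), with a 95% interval from -0.40 to 0.31 and an edgeR adjusted p of 0.873, and without TMM scaling its sign turned (0.07). As a fold of the cochlear level this interval runs from 0.760 to 1.24. Exons of the gene overlap on the other strand with Nqo2 (762 bases, 14.1% of the exonic bases of Serpinb6a), 1110046J04Rik (584 bases, 10.8%) and Ripk1 (241 bases, 4.46%). The library kit keeps strand, but the strand setting of the counting is not given in the sources used here, so the value is uncertain to that extent.

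Serpinb6b (ENSMUSG00000042842, chr13:32965209-32979067, plus strand) is a paralog of Serpinb6a. Its counts were 19, 27 and 21 in the cochlear libraries and 36, 54 and 39 in the vestibular libraries, or 0.777, 0.937 and 0.719 CPM against 1.07, 2.103 and 1.53 CPM. The tissues did not overlap, but the counts were low and vestibule replicate 1 lay close to the cochlear libraries. The log2 fold change was 0.82 ± 0.33 (SE), with a 95% interval from 0.07 to 1.57 that is not adjusted for the number of genes, and the edgeR adjusted p was 0.102. Without vestibule replicate 1 and with the same genes tested, the log2 fold change was 1.06 and the edgeR adjusted p 0.0492. Without vestibule replicate 2 these were 0.56 and 0.354, and without vestibule replicate 3 they were 0.79 and 0.160.

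The ratio of Serpinb6b to Serpinb6a within a library does not depend on depth or scaling. As log2 ratio of CPM it was -6.49, -6.21 and -6.35 in the cochlear libraries and -5.86, -5.02 and -5.66 in the vestibular libraries. Every vestibular library lay above every cochlear one, by a mean of 0.83. The exact permutation p was 0.1 (two-sided), the smallest that 3 libraries against 3 allow. This difference is close to the log2 fold change of Serpinb6b alone (0.82), and Serpinb6b passed the filter only through the vestibular libraries. No 100-base window of the longest coding transcript of either gene, or of any of the other 7, was found in a transcript of another gene.

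Serpinb1a (ENSMUSG00000044734, chr13:32842092-32851185, minus strand) encodes an inhibitor of neutrophil elastase, cathepsin G and proteinase 3. Its counts were 169, 117 and 211 in the cochlear libraries and 225, 185 and 146 in the vestibular libraries. In CPM these were 6.91, 4.06 and 7.22 against 6.68, 7.20 and 5.73. The tissues overlapped, with cochlea replicate 2 the lowest of all 6. For Serpinb1a the log2 fold change was -0.0038 ± 0.23 (SE), with a 95% interval from -0.54 to 0.53 and an edgeR adjusted p of 0.993, and its sign changed with the scaling. Of its target proteases, Elane had 1 count in each of 2 libraries, Ctsg had 0 to 2 counts, and Prtn3 was tested, with a log2 fold change of -0.083 and an edgeR adjusted p of 0.835.

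Spint1 (ENSMUSG00000027315, chr2:119237362-119249527, plus strand) and Spint2 (ENSMUSG00000074227, chr7:29256323-29281912, minus strand) encode the hepatocyte growth factor activator inhibitors, membrane Kunitz proteins that restrain matriptase (St14) and, for Spint2, prostasin (Prss8). Spint1 had 1809, 2494 and 2627 counts in the cochlear libraries and 2928, 2205 and 1988 in the vestibular libraries, or 73.9, 86.6 and 89.9 CPM against 87.0, 85.9 and 78.0 CPM. The tissues overlapped. The log2 fold change of Spint1 was -0.12 ± 0.13 (SE), with a 95% interval from -0.41 to 0.17 and an edgeR adjusted p of 0.525, and without TMM scaling it was 0.0025.

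Spint2 had 7228, 9541 and 8406 counts in the cochlear libraries and 12835, 11127 and 12279 in the vestibular libraries. Scaled to depth, these were 295, 331 and 288 against 381, 433 and 482 CPM, and the tissues did not overlap. The log2 fold change of Spint2 was 0.39 ± 0.16 (SE), with a 95% interval from 0.02 to 0.75 that is not adjusted for the number of genes, and the edgeR adjusted p was 0.111. Scaling by library size alone gave 0.50 and an adjusted p of 0.0221, where the median of all genes tested also moved, from 0.0048 to 0.13.

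The log2 ratio of Spint2 to Spint1 within a library was 1.998, 1.94 and 1.68 in the cochlear libraries and 2.13, 2.34 and 2.63 in the vestibular ones. The libraries did not overlap, and the mean difference was 0.49, with an exact permutation p of 0.1 (two-sided), again the smallest possible. Both ratios of paralogs were thus higher in every vestibular library, without a test that could pass the threshold. Of all single genes tested, 27.5% did not overlap in this direction, and whether the ratios stand apart was not tested.

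**Figure D3:**
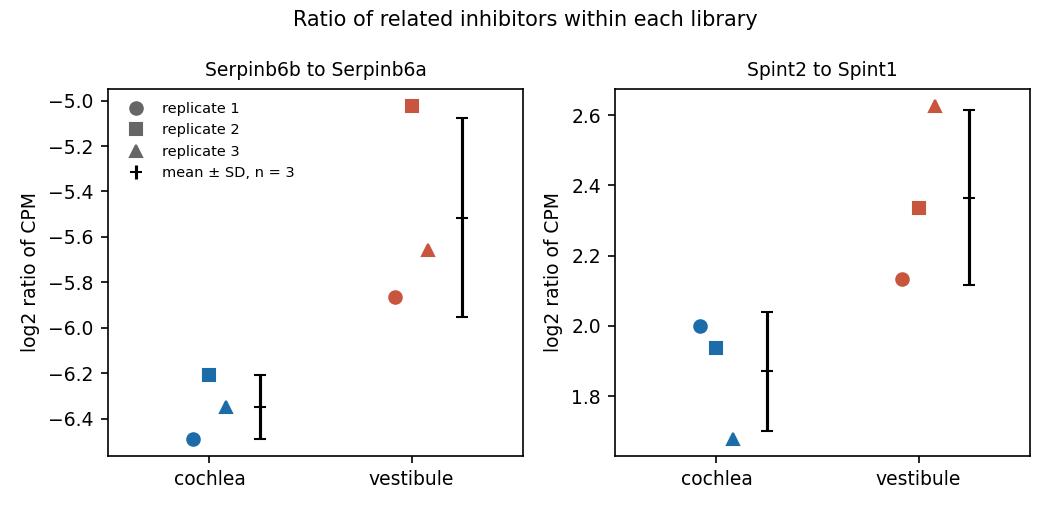
Log2 ratio of CPM of Serpinb6b to Serpinb6a and of Spint2 to Spint1 in each library, with cochlea in blue, vestibule in red and the mean ± SD of 3 libraries as a black bar. In both panels the 3 vestibular libraries lie above the 3 cochlear ones, by a mean of 0.83 and 0.49.

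Levels of different genes were compared per length, with the log2 RPKM (reads by gene length in kilobases and by library size) of the deposited matrix. In the cochlea Spint2 was the highest, at a mean of 7.71 ± 0.11 (SD, n = 3), followed by Spint1 at 4.91 ± 0.15, Serpinb6a at 3.60 ± 0.14, Spink5 at 2.67 ± 0.22, Serpinb5 at 2.04 ± 0.41, Serpinb1a at 1.60 ± 0.46, Serpinb9 at 0.59 ± 0.19, Serpinb6b at -1.43 ± 0.19 and Serpinb8 at -1.84 ± 0.30. Among neighbours in this order, only Serpinb5 with Serpinb1a and Serpinb6b with Serpinb8 overlapped in their libraries. In the vestibule the first 3 places were the same, with Spint2 at 8.21 ± 0.17, Spint1 at 4.92 ± 0.09 and Serpinb6a at 3.68 ± 0.16.

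The order below these 3 differed between the tissues. In the vestibule Serpinb1a at 1.75 ± 0.17 and Serpinb9 at 1.61 ± 0.17 overlapped, as did Serpinb8 at -0.41 ± 0.16 and Serpinb6b at -0.53 ± 0.48. Serpinb5 at -2.62 ± 0.09 and Spink5 came last. For Spink5 the log2 RPKM was -6.13, -5.78 and -9.06, where the last value stands for a library with 0 counts and is set by the offset added before the log. Serpinb6a was thus the clade B serpin with the highest level per length in both tissues, in 3 of 3 libraries each.

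The other clade B serpins were close to absent. None of 21 passed the filter, 12 had no count in any library, and the largest count in a single library was 7. The 6 clade B genes tested were listed with earlier results of these data known. That none of the other 21 passed may therefore follow from this choice, and it is given as a description. The cluster on chromosome 1 holds 12 clade B genes over 749 kb, and the 2 tested, Serpinb5 and Serpinb8, are its first and last gene. The 10 genes between them had at most 11 counts summed over all libraries, and 7 had none. The cluster on chromosome 13 holds 15 genes over 1161 kb, of which Serpinb1a, Serpinb6b, Serpinb9 and Serpinb6a were tested and the other 11 had at most 13 counts in sum. Summed over the 6 clade B genes tested, the level was 85.0 to 98.4 CPM in the cochlear and 82.9 to 97.2 CPM in the vestibular libraries, which overlapped. Most of this sum was Serpinb6a, with means of 65.9 ± 6.31 CPM in the cochlea and 69.3 ± 7.57 CPM in the vestibule (SD, n = 3).

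**Figure D4:**
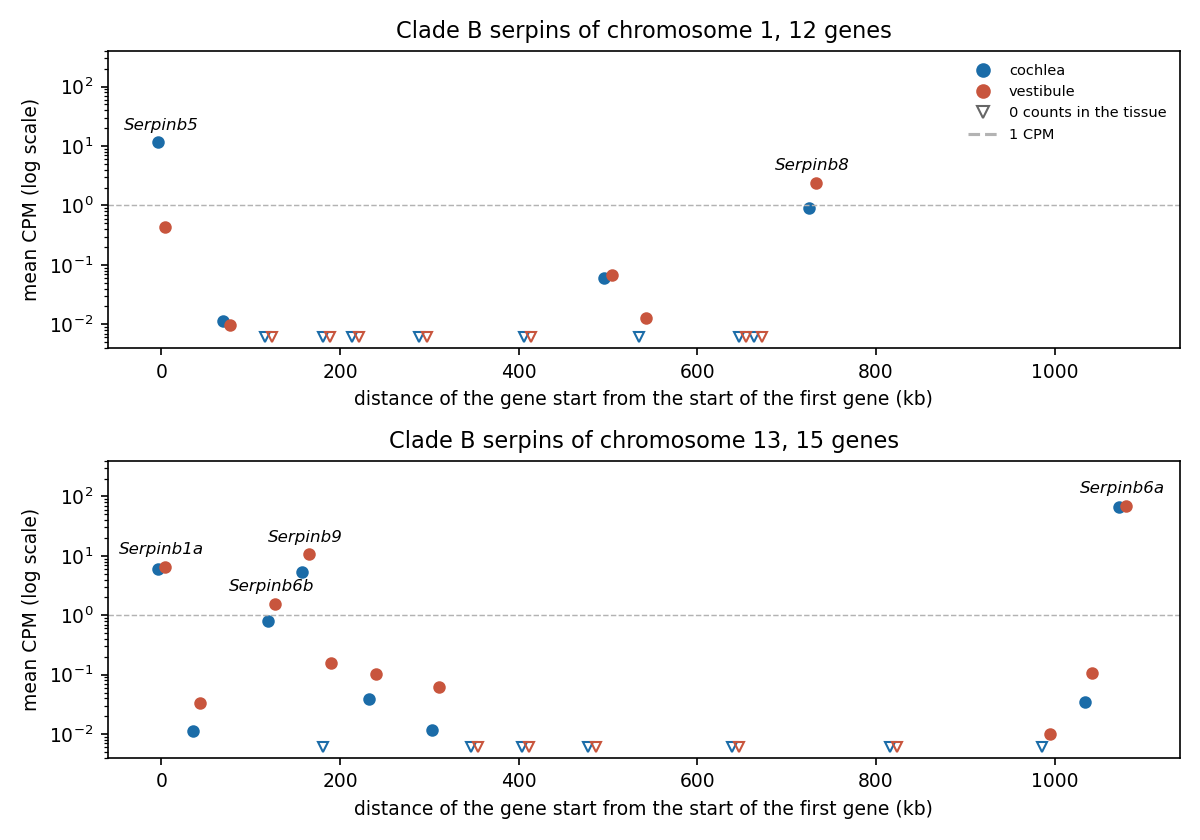
Mean CPM (log axis) of the clade B serpins of chromosome 1 (upper panel) and chromosome 13 (lower panel) against the distance of each gene start from the first gene in kb, with cochlea in blue, vestibule in red and open triangles for genes with 0 counts in a tissue. Only the 2 and 4 named genes reach 1 CPM in a tissue, with Serpinb5 higher in the cochlea at one end of the upper cluster and Serpinb8 higher in the vestibule at the other.

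Of 21 other Kazal and Kunitz inhibitors matched by symbol, 7 were tested, 3 were higher in the vestibule and 1 was higher in the cochlea, with a median log2 fold change of 0.39. Over all genes tested 15.8% and 11.6% were called in these directions, 27.4% in all, and whether the list stands apart was not tested. Those higher in the vestibule were Spink8 (1.21), Aplp2 (0.44) and Tfpi (0.43), the last an inhibitor of the tissue factor pathway of clotting. Spink8 reached 1 CPM in the vestibular libraries only. Wfikkn2, an antagonist of growth factors of the TGF-beta family, was higher in the cochlea (-1.34). App, the amyloid precursor protein and the gene of this list with the most counts, had a log2 fold change of 0.17 and an edgeR adjusted p of 0.530. Wfikkn2 was called with each library left out in turn, whereas the other 3 calls were lost in part: Aplp2 and Tfpi without any 1 of the 6 libraries, and Spink8 without cochlea replicate 1, cochlea replicate 2 or any vestibular replicate (where it no longer passed the filter), which left 1 or 2 calls. Spink8 was also lost under DESeq2, Aplp2 under RLE scaling, and Aplp2 and Tfpi with no filter on low counts, while the filter of 10 counts added Tfpi2.

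Of 19 proteases that these inhibitors are known to act on or that are related to them, 10 were tested, 2 were higher in each tissue, and the median log2 fold change was -0.01, where 27.4% of all genes tested were called. Tmprss2, a membrane serine protease, lay just outside the threshold at -0.70 (edgeR adjusted p = 0.0519), and it was called higher in the cochlea as well under DESeq2, RLE scaling, the exact test of edgeR and the filter of 10 counts, which made 5 calls. Plau, the urokinase plasminogen activator, rose from 40, 26 and 29 counts in the cochlea to 204, 158 and 173 in the vestibule, a log2 fold change of 2.32 ± 0.27 (SE). St14, the matriptase restrained by Spint1 and Spint2, was higher in the vestibule by 0.46 ± 0.13, and Prss8, the prostasin, was higher in the cochlea (-0.45 ± 0.11). Tmprss3 was higher in the cochlea, with 1167, 1585 and 1954 counts against 1004, 795 and 794 and a log2 fold change of -1.001 ± 0.15. Furin, the target of Serpinb8, had a log2 fold change of 0.03 ± 0.18 and Plat, the tissue plasminogen activator, of -0.02 ± 0.12, and neither passed the test. The calls of Plau and Tmprss3 held with each library left out, while 2 calls remained without vestibule replicate 1 or 2, where St14 and Prss8 were lost. With the same genes tested, Prss8 was still called without vestibule replicate 1, and Tmprss2 took the place of St14. St14 was also lost without cochlea replicate 1 or vestibule replicate 3, and Tmprss2 was added without cochlea replicate 2. With no filter on low counts St14 was lost and Tmprss2 was called.

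Of 14 serpins of other clades, most of them secreted, 7 were tested, 3 were higher in the vestibule and 1 was higher in the cochlea, with a median log2 fold change of -0.22, beside the 27.4% called over all genes tested. Serpina3n, an extracellular inhibitor known from inflammation, had 11, 12 and 14 cochlear counts against 209, 136 and 152 vestibular ones, a log2 fold change of 3.57 ± 0.24 (SE). It reached 1 CPM in the vestibular libraries only, and without any 1 of them it no longer passed the filter, which left 3 calls in the list. Serpine3 was higher in the vestibule by 2.80 ± 0.24, and Serping1, the C1 inhibitor of complement, by 0.82 ± 0.15. Serpini1, the neuroserpin that inhibits tissue plasminogen activator, had 1087, 970 and 343 cochlear counts against 196, 87 and 124 vestibular ones, a log2 fold change of -2.79 ± 0.46. Cochlea replicate 3 was well below the other 2 cochlear libraries and still above all vestibular ones. The most abundant by counts, Serpinh1, a collagen chaperone that stays in the endoplasmic reticulum, and Serpine2, did not pass the test, at -0.25 and -0.22. With no filter on low counts or the filter of 10 counts, Serpind1 was called as well.

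**Figure D5:**
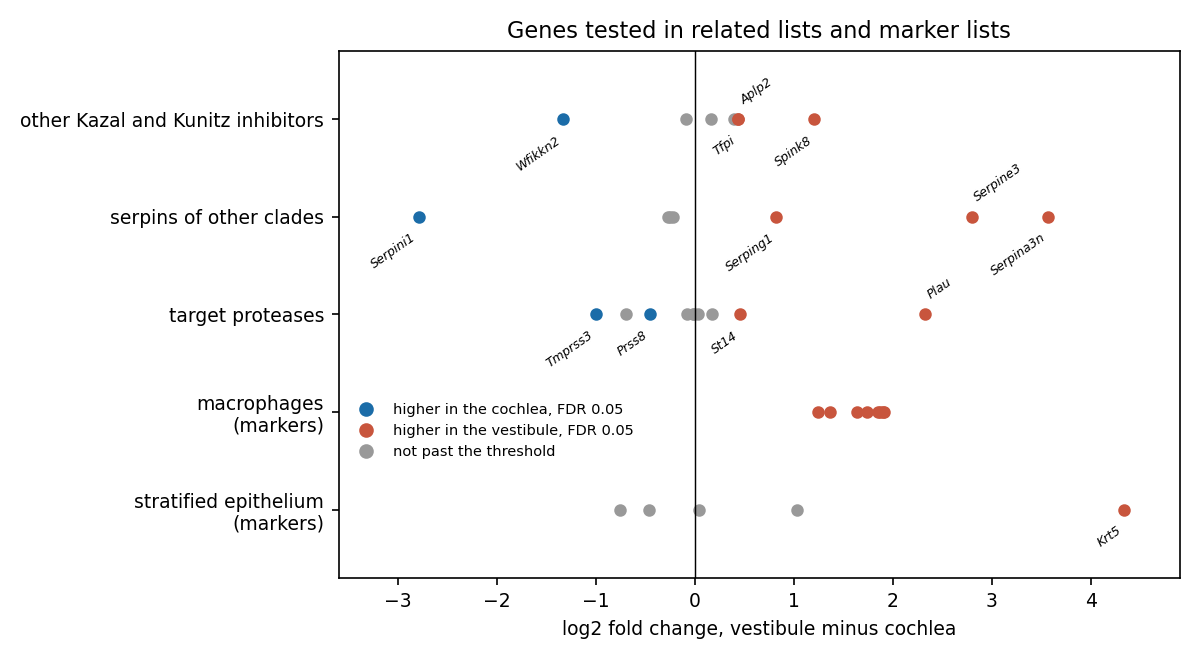
Log2 fold change (vestibule minus cochlea) of each gene tested in 3 related lists and 2 marker lists, one point per gene, in red or blue where it passed an FDR of 0.05 and grey otherwise. Called genes of the inhibitor and protease lists lie on both sides of 0, and all 8 macrophage markers lie between 1.24 and 1.91.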

How the data were processed

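Reads were aligned by the authors to the mouse genome (GRCm38, Ensembl release 74) using TopHat2, and the counts per Ensembl gene from htseq-count were deposited as whole numbers with no normalization. TopHat2 2.1.0, SAMtools 0.1.18, HTSeq 0.5.4p5 and edgeR 3.4.2 are versions from the submitters' processing notes. Summary lines that name no gene (18.5% to 20.6% of listed counts) stayed out of library sizes and tests. A matrix of log2 RPKM of the filtered genes was also deposited by the authors. Set against the counts over 11426 genes, these values were scaled by library size without TMM (largest spread 0.0042). No deposited column was left out.

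Here edgeR 4.0.16 (R 4.3.3) was run on genes that reached 1 CPM in a minimum of 3 libraries (quasi-likelihood test, TMM, Benjamini-Hochberg over all genes, FDR 0.05) over all 6 libraries, grouped by the labelled tissue, without a block. TMM factors were 0.921 to 1.09. The code was tested on simulated data. Log2 CPM for likeness used a prior count of 0.5. Ratios within a library were compared by exact permutation. Promoters were from RefSeq (GRCm38.p6) and gene positions from GENCODE vM21, which is not the release counted on. Of 39179 identifiers, 37607 had a symbol. Python 3.11.15 and matplotlib 3.10.9 drew the figures.

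The 9 genes and all lists (other clade B serpins, other Kazal and Kunitz inhibitors, mostly secreted serpins of other clades, proteases, and markers of hair cells, supporting cells, macrophages, neutrophils and mast cells, lymphocytes, stratified epithelium, dark cells and stria, endothelium and mesenchyme) were chosen with earlier results of these data known. The genes named were the 9, in each list the called genes with the largest change (up to 3) and those with the most counts, and the 5 most like Spink5. Tfpi, Tfpi2, Serpind1, Prss8, Tmprss2, Klk8, Serping1, Krt5, the proteases near 0 and the markers named were added after their values were seen. For 9 results, 123 alternatives were set in advance: DESeq2 1.42.0, limma-voom of limma 3.58.1, edgeR's exact test, other scalings and filters, a replicate block, and leaving out each library. Leaving out each library with the genes tested held fixed was added after seeing the data.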

Additional observations from a re-analysis of the deposited data

How the results depend on the processing

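Serpinb5, Serpinb8 and Serpinb9 were called under DESeq2, limma-voom, the exact test and each other scaling and filter. With 1 library left out, 2 or 3 inhibitors were called. Serpinb5 was not tested without any 1 cochlear library, because it then passed the filter in only 2 libraries, and Serpinb6b was not tested without any 1 vestibular library. With the genes held fixed, a setting chosen after seeing the data, 3 or 4 were called, and Serpinb5 stayed between -5.00 and -4.67. Serpinb8 ranged from 1.21 to 1.47 and Serpinb9 from 0.81 to 1.003, with edgeR adjusted p up to 0.0326 and 0.0467.

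Genes near 0 changed sign. Serpinb6a was 0.073 without TMM and -0.15 to 0.074 with 1 library left out, and with the genes held fixed 0.027 without cochlea replicate 2 and 0.057 without vestibule replicate 1. Serpinb1a was 0.11 without TMM, 0.029 under limma-voom, 0.011 with upper quartile scaling, 0.024 with the replicate block and -0.21 to 0.12 with 1 library left out. With the genes held fixed it was 0.088 and 0.13 without cochlea replicates 1 and 3, and 0.012 and 0.048 without vestibule replicates 1 and 3. Without TMM, Spint1 was 0.0025 and Spint2 passed the test (0.50).

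Calls over all genes were 2267 to 4557 with 1 library left out (2655 to 4713 with the genes held fixed), the lowest without vestibule replicate 2. Other Kazal and Kunitz inhibitors had 1 or 2 calls with 1 library left out, and 2 with no filter on low counts. Proteases had 2 to 5 calls with 1 library left out, of which Tmprss2 was an added one without cochlea replicate 2. With no filter, 1 other clade B serpin, Serpinb9b, was called, at 0 counts in the cochlea and 13 in the vestibule. For these changes the cause was not tested. The ratios ranged from 0.59 to 1.01 and from 0.36 to 0.61 with 1 library left out.

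Replicate numbers do not pair the libraries by the labels, and the deviations of same-numbered libraries correlated at -0.18, -0.26 and -0.47. With a replicate block 2618 genes were called (1009 higher in the cochlea, 1609 in the vestibule), with 1 of the Kazal and Kunitz list, 2 proteases and the same 3 inhibitors. The ratios under the block had an exact sign-flip p of 0.25, the smallest possible. Counts were low for Serpinb6b and Serpinb8, at 19 to 72 per library, and in the vestibule for Serpinb5 (11 to 14) and Spink5 (0 to 2).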
